A study of Mus musculus with 2 samples.

Results

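The 8 genes described here, Atoh7, Neurog2, Neurod1, Neurod2, Neurod4, Olig2, Ptf1a and Bhlhe22, encode basic helix-loop-helix (bHLH) transcription factors that act as retinal progenitors become neurons. They were chosen by gene symbol, make up 8 of the 31053 genes in the deposited matrices, and each had unique molecular identifiers (UMIs, counted RNA molecules) in both libraries. The libraries are single cell RNA sequencing of dissociated mouse eye cups at postnatal day 0 (P0), after removal of the cornea, lens and optic nerve. The control library pooled 3 Myrf fl/fl eye cups, in which both Myrf alleles carry loxP sites and no cre was present. The mutant library pooled 3 Rx>cre Myrf fl/fl eye cups, which carry the same floxed alleles and a cre driven by Rx regulatory sequence, active in the early eye field that gives rise to both the neural retina and the retinal pigment epithelium (RPE). The labels give no pup for a cell and no sex for a pup. With 1 library per genotype there was no replicate and no test, so levels are given with counting intervals, which cover counting error only and not the differences between pups. Where 2 values are given together, the control comes before the mutant.

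Proneural bHLH factors bind DNA as dimers with the widely expressed E proteins, at short E-box motifs. In the retina they start neurogenesis, drive cells out of the division cycle and bias the fate that is taken, while Notch signalling through Hes factors and Id proteins holds them in check. Atoh7 and Neurog2 act early in neurogenic progenitors, Olig2 marks progenitors close to their last divisions, Neurod1 and Neurod4 act in young photoreceptors and amacrine cells, Ptf1a commits cells to amacrine and horizontal fates, and Neurod2 and Bhlhe22 act in subsets of amacrine and other neurons.

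The genes lie on 5 chromosomes of GRCm38 and have few exons in the GENCODE annotation. Atoh7 lies at chr10:63099651-63101279 on the plus strand, with 1 or 2 exons by transcript, and Neurod4 at chr10:130268152-130280240 on the minus strand. Neurog2 (chr3:127633135-127635631) and Bhlhe22 (chr3:18054174-18057517), both on the plus strand, share a chromosome, as do Neurod1 (chr2:79452521-79456751, minus strand) and Ptf1a (chr2:19445663-19447501, plus strand). Neurod2 lies at chr11:98325415-98329648 on the minus strand and Olig2 at chr16:91225457-91228677 on the plus strand. Bhlhe22 is a single exon gene, and the 6 members other than Atoh7 and Bhlhe22 have 2 exons.

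Since bHLH factors bind E-boxes and are known to act on each other's genes, the 250 bases before each RefSeq start site (GRCm38.p6) were searched for CANNTG, which reads the same on both strands. Promoters were matched for 7 of the 8 members (8 promoters, since Neurod4 has 2), and Bhlhe22 had no entry. The 3 promoters that hold the motif are shown 5′ to 3′ on the strand of the gene, with each CANNTG in capitals. Atoh7 is chr10:63099535-63099784 (plus strand), Neurod1 is chr2:79456637-79456886 (minus strand) and Neurod2 is chr11:98329646-98329895 (minus strand).
Atoh7: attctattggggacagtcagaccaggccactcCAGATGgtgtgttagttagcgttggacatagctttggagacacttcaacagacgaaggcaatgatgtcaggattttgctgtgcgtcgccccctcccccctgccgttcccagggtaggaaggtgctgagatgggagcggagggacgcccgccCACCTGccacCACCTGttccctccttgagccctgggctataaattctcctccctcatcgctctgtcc
Neurod1: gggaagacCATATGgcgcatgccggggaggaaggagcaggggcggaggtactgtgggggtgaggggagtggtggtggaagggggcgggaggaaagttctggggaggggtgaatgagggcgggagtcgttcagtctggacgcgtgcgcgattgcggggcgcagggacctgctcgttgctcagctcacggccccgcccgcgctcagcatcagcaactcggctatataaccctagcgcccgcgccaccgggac
Neurod2: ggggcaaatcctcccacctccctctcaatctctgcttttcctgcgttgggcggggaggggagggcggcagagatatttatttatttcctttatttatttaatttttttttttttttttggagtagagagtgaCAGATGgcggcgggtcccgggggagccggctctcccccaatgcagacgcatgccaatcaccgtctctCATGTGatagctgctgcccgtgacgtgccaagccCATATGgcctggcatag

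The Atoh7 window holds CAGATG 218 bases and CACCTG 67 and 57 bases before the start site, and both CACCTG matches fall inside the GENCODE gene, which begins upstream of the RefSeq start. The GENCODE gene of Neurod1 also begins inside its window, after the match. The Neurod2 window also holds 3 matches, CAGATG 118, CATGTG 51 and CATATG 17 bases before the start, and the Neurod1 window holds CATATG 242 bases before it. No CANNTG was in the windows of Neurog2, Neurod4, Olig2 and Ptf1a. Of all 32851 RefSeq promoter windows of this length, 66.2% hold at least 1 match, 12.2% at least 3, 14.4% CAGATG on either strand and 3.46% CATATG, so a match is common and is given as a description of the sequence only.

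The control matrix held 14305 barcodes and 79017429 UMIs and the mutant matrix 12222 barcodes and 76272867 UMIs, with medians of 4201 and 4952 UMIs per barcode. After removal of likely doublets (1537 and 1149) and low quality barcodes, 12594 control and 10878 mutant cells were kept. Clustering with 40 genes held out (the 8 members, other bHLH genes, Myrf, Xist and Y-linked genes) gave 37 clusters, which were named only by fixed marker genes, and 7 stayed unnamed. The named classes of the neural retina were progenitor-like (2984 control and 3648 mutant cells), neurogenic-like (1354 and 1431), photoreceptor-like (696 and 787) and amacrine-like (730 and 961). No cluster was named for ganglion or horizontal cells. Myrf itself, which checks the genotype labels, had 744 UMIs in control RPE-like cells (225 CPM) and 64 in mutant RPE-like cells (25.8 CPM), 8.72-fold lower. The pools differed in the sex of their cells: 7.23% of kept control cells held Xist and no Y-linked UMI and 51.2% a Y-linked UMI and no Xist, against 70.4% and 14% in the mutant. Genotype and pup therefore cannot be told apart in the pooled values, and several of the differences are also given within Xist cells and within Y-linked cells. In all, 59 barcodes were held by both libraries, and leaving them out moved no ratio or share beyond its counting interval.

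Neurogenic-like cells were 23.5% of the named neural retina cells in the control (95% Clopper-Pearson interval 22.4 to 24.6) and 20.96% in the mutant (20 to 22). They formed 3 clusters. Cluster 14 (301 and 322 cells) was led by Gadd45g, Miat and Mybl1, with the Notch ligands Dll3 and Dll1 among its 10 leading genes. Cluster 12 (303 and 405 cells) was led by Hes2, Sstr2 and Foxn4 and was full of dividing cells. Cluster 2 (750 and 704 cells) had Pkib, Dll3 and Sstr2 among its 10 leading genes. Of the neurogenic-like cells thinned to 1000 UMIs, 87.3% of control and 89.2% of mutant cells held a UMI of at least 1 of the 8 genes, and 57.7% and 59.9% held at least 2 of them. In progenitor-like cells the share with at least 1 was 5.34% and 6.66%. The background, measured in endothelial-like, mesenchyme or pericyte-like and white blood-like cells, which should lack these genes, was 7.78% and 2.37%, with median depths of 10148 and 11204 UMIs against 4901.5 and 4961 in progenitor-like cells and 4268 and 4717 in neurogenic-like cells.

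Neurog2, a proneural factor that acts at the start of neurogenesis, was a gene of neurogenic-like cells. The control level there was 643 CPM (counts per 1000000 UMIs of the class, 95% Poisson interval 623 to 663) and the mutant level 718 CPM (699 to 738). Within the class it was highest in the dividing cluster 12, at 1166 and 1156 CPM, next in cluster 14 at 515 and 622 CPM, and lowest in cluster 2 at 349 and 409 CPM. Amacrine-like cells held 191 and 181 CPM, and only 15 and 27 UMIs were counted in photoreceptor-like cells. Neurog2 thus marked dividing neurogenic cells and stayed detectable in amacrine-like but hardly in photoreceptor-like cells, in both libraries.

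Olig2, a factor of progenitors near their last divisions, followed the same order within the neurogenic-like clusters. It was at 359.6 and 382 CPM in cluster 12, 250.1 and 240.0 CPM in cluster 14 and 112 and 117 CPM in cluster 2, and the intervals of the 3 clusters did not overlap within a library. Over the class the control level was 218 CPM (206 to 229.9) and the mutant level 236 CPM (225 to 247). Amacrine-like cells held 20.9 CPM in each library, with the highest level in cluster 17 (60.5 and 58.7 CPM), and photoreceptor-like cells held 8 and 11 UMIs. Cluster 17 carried 6 of the 10 amacrine markers and also 4 of the 10 neurogenic markers.

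Atoh7, the factor needed for ganglion cells and active in the progenitors of several early fates, had a different order within the class. It was lowest in cluster 14 (114 and 296 CPM), higher in the dividing cluster 12 (518 and 896 CPM) and highest in cluster 2 (1046 and 1238 CPM). Over all neurogenic-like cells control Atoh7 was at 697 CPM (676 to 718) and mutant Atoh7 at 927 CPM (905 to 949). Among young neurons, photoreceptor-like cells held 89.1 and 54.7 CPM and amacrine-like cells 118 and 147 CPM, with 360.1 and 491 CPM in amacrine-like cluster 17.

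Neurod1, which supports photoreceptor differentiation and survival, was highest in photoreceptor-like cells. Control cells held 2123 CPM of it (2065 to 2183) and mutant cells 1979 CPM (1928 to 2031), and it was 1141 CPM (1114 to 1168) and 1104 CPM (1080.3 to 1129) in neurogenic-like cells. Clusters 14 and 12 held similar levels of Neurod1, from 527 to 566 CPM over the libraries, while cluster 2 held 1756 and 1822 CPM. The unnamed cluster 5, which has Fabp7, Insm2 and Epha8 among its 10 leading genes and carries photoreceptor and neurogenic markers, had 2573 and 2649 CPM. Amacrine-like cells had far less, 225 and 192 CPM.

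Neurod4, which acts with related factors in amacrine and bipolar development, was high in some of the same clusters as Neurod1. It was 693 and 716 CPM in neurogenic-like cluster 2 and 1257 and 1291 CPM in cluster 5, but only 21.8 and 29.3 CPM in the dividing cluster 12. Over the class the control level was 363 CPM (348 to 378) and the mutant level 338 CPM (324 to 351). Photoreceptor-like cells held 433 and 396 CPM and amacrine-like cells 235 and 169.8 CPM, with 576 and 525 CPM in cluster 17. Unlike Neurod1, Neurod4 was therefore strong in a set of amacrine-like cells, which also carried neurogenic markers, and nearly missing from dividing neurogenic cells.

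Ptf1a, required for amacrine and horizontal cells, was a gene of amacrine-like cells, at 656 CPM in control (630.3 to 681) and 613 CPM in mutant cells (592 to 634). It was concentrated in cluster 17 (1293 and 1383 CPM) and cluster 20 (807 and 733 CPM), whereas cluster 15 held 33.2 and 33.8 CPM. Neurogenic-like cells held 57.9 and 61.6 CPM, with the highest level in cluster 2 (87.2 and 92.2 CPM).

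Neurod2 and Bhlhe22 were low in all classes. Neurod2, a factor of maturing neurons, had 115 and 81 UMIs in amacrine-like cells (29.6 and 15 CPM), of which 84 and 51 were in cluster 20, and 38 and 18 UMIs in neurogenic-like cells. Progenitor-like cells of the control held 0 Neurod2 UMIs and those of the mutant 2, and photoreceptor-like cells 1 in each. Bhlhe22, a factor of amacrine and bipolar subsets, was spread more evenly, at 59.0 and 97.5 CPM in neurogenic-like cells and 61.3 and 73.5 CPM in amacrine-like cells. Its highest levels were in neurogenic-like cluster 14 (123 and 188 CPM) and amacrine-like cluster 15 (120.4 and 152 CPM), the amacrine-like cluster in which Ptf1a was lowest.

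**Figure D1:**
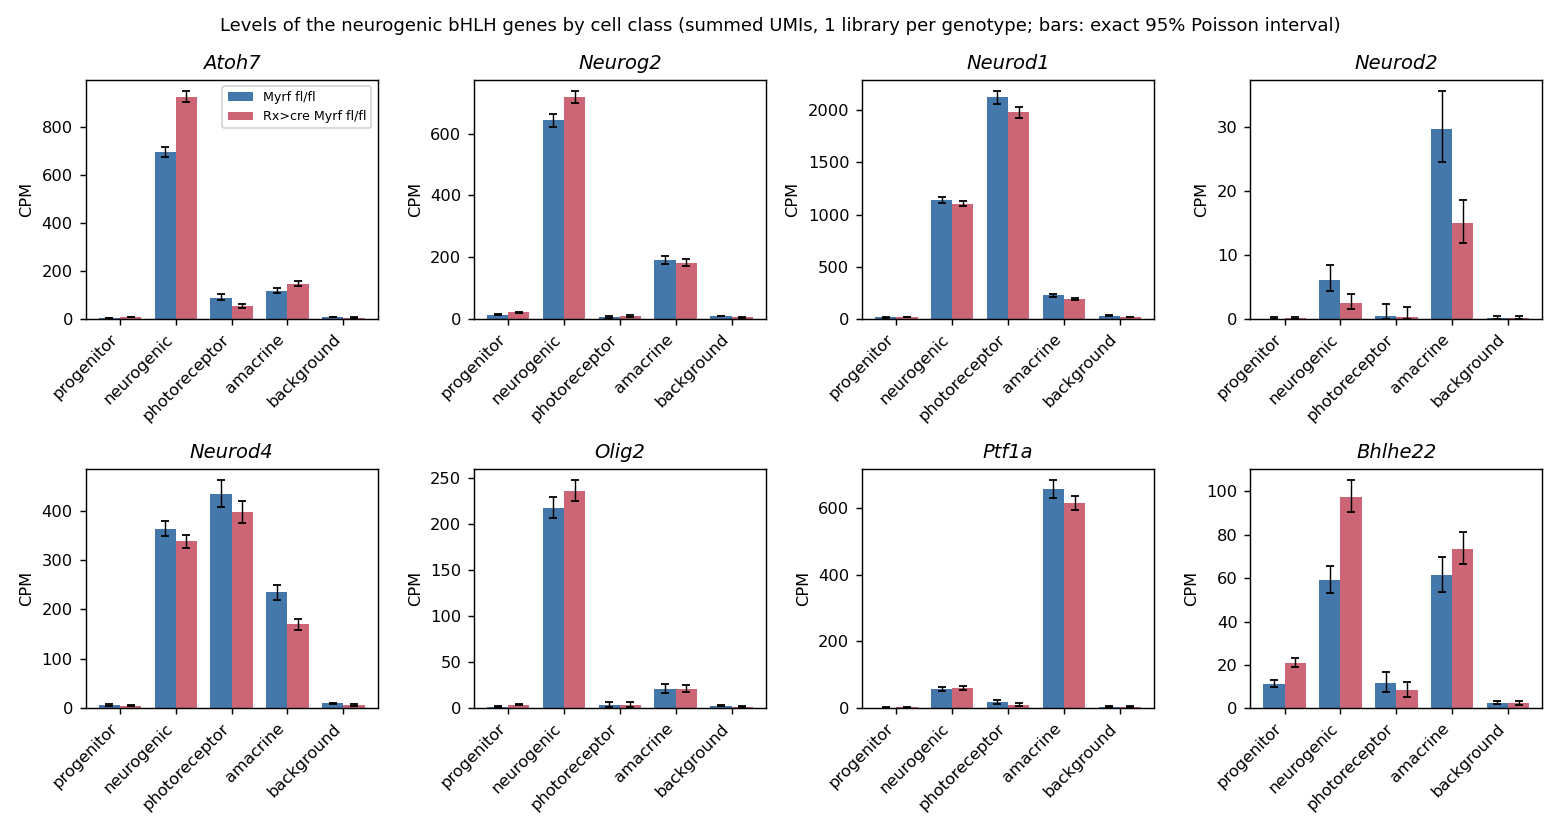
Level of each gene in CPM (vertical axis, linear, from 0, with its own scale in each panel) in the 4 named neural retina classes and in the background classes, for the control (blue) and mutant (red) library; error bars are exact 95% Poisson intervals. Neurod1 is highest in photoreceptor-like cells and Ptf1a and Neurod2 in amacrine-like cells, while Atoh7, Neurog2 and Olig2 are highest in neurogenic-like cells.

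The same order of clusters was seen as shares of cells, thinned to 1000 UMIs so that depth was equal. Neurog2 was found in 160 of 303 control and 235 of 405 mutant cells of cluster 12 against 148 of 740 and 174 of 697 cells of cluster 2, and Neurod4 in 2.64% and 2.22% of cluster 12 against 43.9% and 41.9% of cluster 2. In photoreceptor-like cells 81.9% and 80.3% held Neurod1 and 26.4% and 23.5% Neurod4. In amacrine-like cells 38% and 37.7% held Ptf1a and 17.3% and 15.6% Neurog2. Before thinning the share of neurogenic-like cells with Atoh7 was 46.6% and 56.2%, and after it 26.0% (23.6 to 28.4) and 34.0% (31.6 to 36.5), which shows how far such shares follow depth. Atoh7 was found in 1.28% and 0.254% of thinned background cells.

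**Figure D2:**
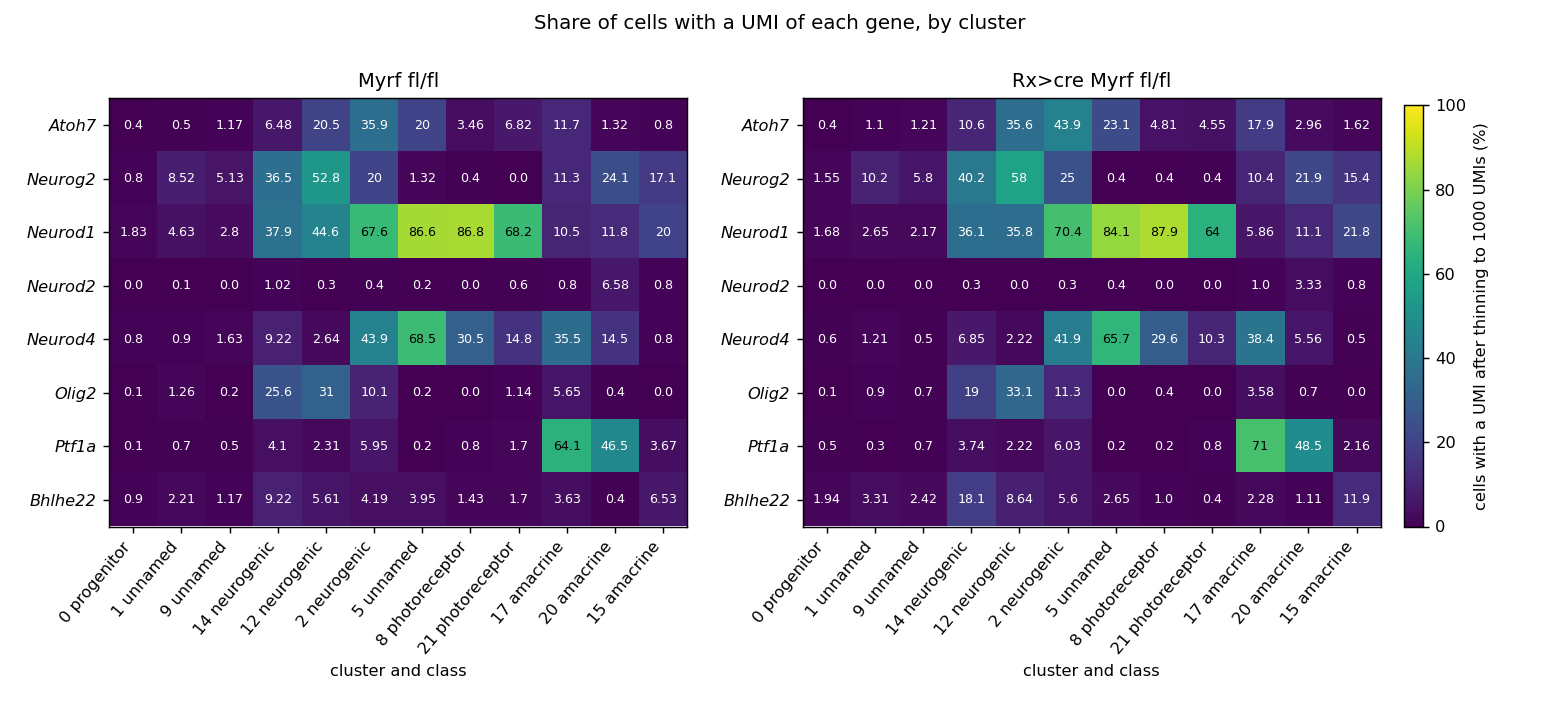
Share of cells with at least 1 UMI of each gene (rows) in 12 clusters (columns, with the class in which each was named) after thinning to 1000 UMIs per cell, in percent, for the control (left) and mutant (right) library. Neurog2 and Olig2 peak in cluster 12, Neurod1 in clusters 5 and 8, Neurod4 in cluster 5, and Ptf1a in clusters 17 and 20.

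By CPM, most of the genes were below background in control progenitor-like cells. The background cells were deeper than the progenitor-like cells in both libraries, and the levels were not adjusted for this. The 5 genes Atoh7, Neurod1, Neurod4, Olig2 and Ptf1a were at 1.53 to 14.8 CPM in the control, each below its own level in the control background cells, which ranged over these genes from 2.63 to 31.9 CPM. In the mutant Atoh7 (7.21 CPM) and Olig2 (3.96 CPM) were above their background of 5.28 and 1.57 CPM, while Neurod1, Neurod4 and Ptf1a were not. Neurog2 was above the background in both libraries, at 13.9 and 21.4 CPM against 9.45 and 5.64 CPM. Bhlhe22 was further above it, at 11.3 and 21.1 CPM against 2.59 and 2.21 CPM. Higher levels were found in the unnamed cluster 1 (with Ass1, Miat, Sox8 and Dll1 among its 10 leading genes), which held 120.2 and 143 CPM of Neurog2 and 30.8 and 35.2 CPM of Bhlhe22. In the unnamed cluster 9, with the mitotic genes Cdc20 and Ccnb2 among its 10 leading genes, Neurog2 was 51.8 and 54.7 CPM.

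Several of the genes were at different levels in neurogenic cells with and without division genes. By the full lists of S and G2/M genes, with at least 2 UMIs of a list in a thinned cell, 98.2% and 98.9% of progenitor-like and 77.4% and 85.2% of neurogenic-like cells carried division genes, but so did 70.6% and 72.0% of photoreceptor-like cells, which have left the cycle. Shorter lists of genes (15 for S and 17 for G2/M), chosen after these values were seen, marked 79.4% and 80.8% of progenitor-like cells and 4.65% and 6.17% of photoreceptor-like cells. By the shorter lists 37.1% of control neurogenic-like cells (34.5 to 39.7) and 44.5% of mutant ones (41.9 to 47.1) carried division genes, and so did 99.3% and 99% of cluster 12, 34.1% and 48.3% of cluster 14 and 12.7% and 11% of cluster 2. A share of 14.2% and 9.99% of the background cells was marked too.

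Neurog2 was 1022 and 1003 CPM in neurogenic-like cells with the shorter-list genes and 333 and 424 CPM in those without. Olig2 was 309 and 332 CPM with them and 144 and 137 CPM without. Neurog2 and Olig2 were thus higher in cells with division genes, in both libraries and beyond the counting intervals. The other way round, Neurod1 was 590.4 and 569 CPM in cells with division genes against 1593 and 1658 CPM without, and Neurod4 58.6 and 51.5 CPM against 613 and 631 CPM. Ptf1a had the order of the Neurod genes, at 20.9 and 32.6 CPM against 88.2 and 91.6 CPM. Atoh7 differed less, at 593 and 830.3 CPM against 781 and 1028 CPM. Bhlhe22 was 60.1 and 105 CPM against 58.0 and 89.6 CPM, with overlapping intervals in each library.

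Some pairs of the genes were found together in neurogenic-like cells in a larger share than in the rest of the class. Among thinned cells with Neurod4, 80.3% also held Neurod1 in the control (289 of 360 cells, interval 75.8 to 84.3), against 46.8% of cells without Neurod4. In the mutant these shares were 79.6% (257 of 323) and 45%. Read the other way, Neurod4 was in 38.7% of control Neurod1 cells (35.2 to 42.3) against 12% of the rest (9.52 to 14.9), and in 34.2% against 9.84% in the mutant, on the same 289 and 257 cells. Among cells with Olig2, 45.1% held Neurog2 in the control (110 of 244, 38.7 to 51.6) against 27.9% of the rest (25.3 to 30.7), and in the mutant 52.9% (145 of 274) against 34.2%. Among cells with Ptf1a, 54.0% held Atoh7 in the control (34 of 63, 40.9 to 66.6) against 24.6% (22.2 to 27.0), and 58.7% (37 of 63) against 32.9% in the mutant.

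Other pairs were found together in a smaller share. Among Neurod4 cells 14.2% of control and 15.5% of mutant cells held Neurog2, against 37.3% and 44.4% of cells without Neurod4. Olig2 was in 8.06% and 9.91% of Neurod4 cells against 22.0% and 22.0% of the rest. Ptf1a cells held Neurod1 in 28.6% and 31.7% against 57.2% and 53.8%. Atoh7 and Neurod1 showed no such difference beyond the counting intervals, with Neurod1 in 54.8% and 53.7% of Atoh7 cells and in 56.2% and 52.4% of the rest over the whole class. The cells of a class share a library, so these shares describe 2 libraries and not replicates.

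Pairs were then read within single clusters, which hold a narrower range of cells. In the dividing cluster 12 Neurog2 was in 52.1% of Olig2 cells and 53.1% of the rest in the control, and in 64.2% and 55.0% in the mutant, with overlapping intervals. In cluster 2, by contrast, Neurog2 was in a larger share of Olig2 cells than of the rest in both libraries, at 30 of 75 cells (interval 28.9 to 52.0) against 17.7% and 33 of 79 cells against 22.8%. In cluster 14 the intervals overlapped, at 41.3% against 34.9% in the control and 42.6% against 39.6% in the mutant, so Olig2 and Neurog2 were found together beyond the counting intervals in 1 of the 3 clusters. Within cluster 2 Neurod1 was also in 82.5% of Neurod4 cells against 55.9% of the rest in the control and in 83.2% against 61.2% in the mutant. Ptf1a and Neurod1 were apart in this cluster too, with Neurod1 in 22.7% of Ptf1a cells against 70.4% of the rest (10 of 44 Ptf1a cells), and 33.3% against 72.8% (14 of 42). Atoh7 and Neurod1, which did not differ over the class, did in cluster 2 of the control, where Neurod1 was in 57.9% of Atoh7 cells (51.7 to 63.9) against 73.0% of the rest (68.8 to 76.9). The mutant shares lay in the same order, 66.0% against 73.9%, with overlapping intervals. In cluster 2 Neurog2 was in 11.7% and 12% of Neurod4 cells against 26.5% and 34.3% of the rest. In cluster 14 Neurog2 was in 33.3% of Neurod4 cells against 36.8% in the control and in 40.9% against 40.1% in the mutant, with overlapping intervals. Neurod1 was there in 63.0% of Neurod4 cells (42.4 to 80.6) against 35.3% (29.6 to 41.4) in the control and in 50% (28.2 to 71.8) against 35.1% (29.7 to 40.8) in the mutant, where the intervals overlapped, and 12 cells of each library held Ptf1a. In cluster 12 at most 9 cells of a library held Neurod4 or Ptf1a, too few to read these pairs there.

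In amacrine-like cells Ptf1a with Neurod4 and with Neurod1 differed from the rest of the class, but not beyond the intervals within cluster 17. Ptf1a was in 68.3% of Neurod4 cells (84 of 123, 59.3 to 76.4) against 31.8% of the rest in the control, and in 70.4% (95 of 135) against 32.2% in the mutant. Neurod1 was in 14.6% and 11.9% of amacrine-like Neurod4 cells and in 14% and 13.9% of the rest. The Neurod1 cells of this class held Ptf1a in 25.5% and 17.1%, against 40.1% and 40.9% of the rest. Within cluster 17, where Neurod4 and Ptf1a were both highest among the amacrine-like clusters, Ptf1a was in 69.3% of Neurod4 cells (58.6 to 78.7) against 61.3% of the rest (53.2 to 68.8) in the control and in 71.2% against 70.9% in the mutant. Ptf1a was there in 57.7% of control Neurod1 cells against 64.9% of the rest, and in 72.2% against 70.9% in the mutant, on 26 and 18 Neurod1 cells. In each of these 4 comparisons within cluster 17 the intervals overlapped.

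**Figure D3:**
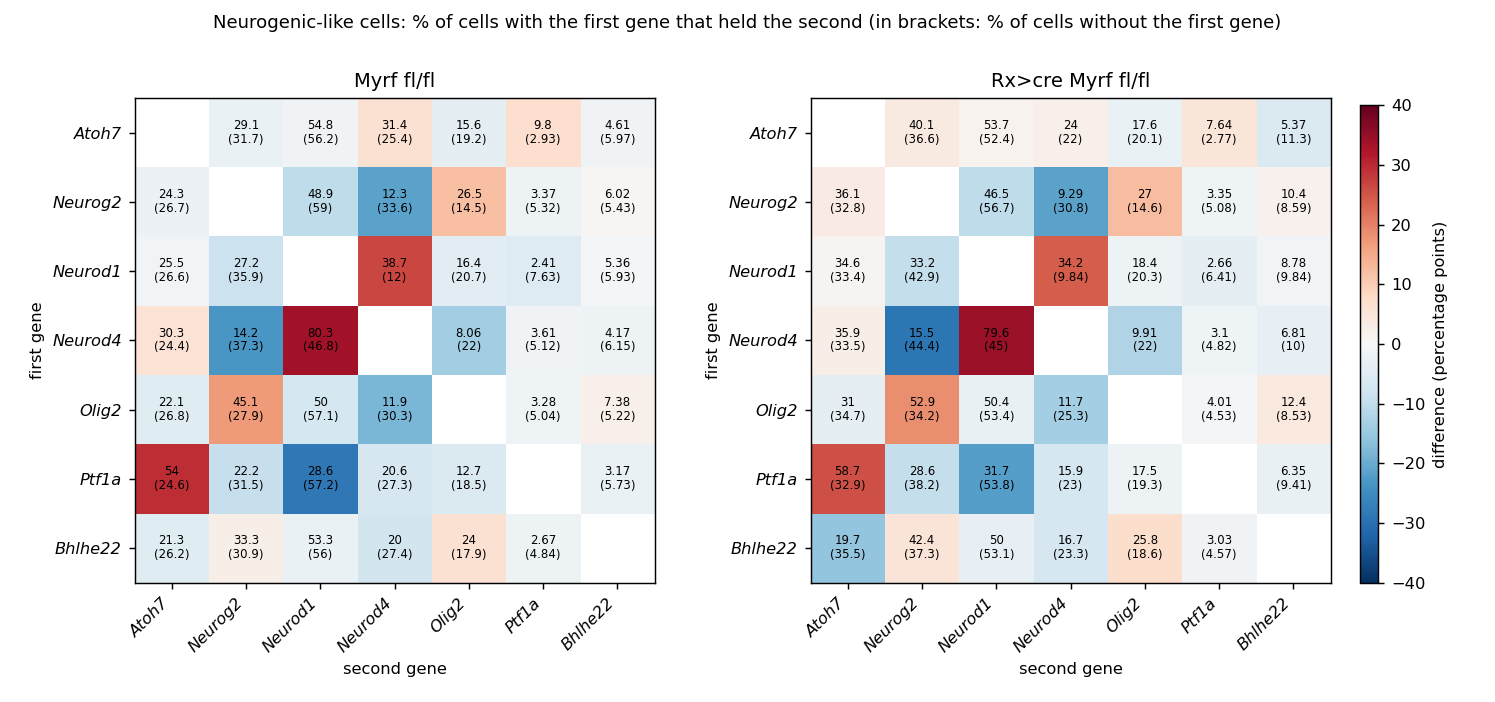
Co-detection of 7 of the genes in thinned neurogenic-like cells of the control (left) and mutant (right) library; each square gives the percent of cells with the first gene (row) that also held the second (column) and, in brackets, the percent among cells without the first gene, and its colour the difference in percentage points. Neurod1 with Neurod4, Neurog2 with Olig2 and Atoh7 with Ptf1a lie above 0 in both libraries, and Neurod4 with Neurog2 below 0; Neurod2 is left out because at most 7 thinned cells held it.

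The comparison of genotypes asked whether loss of Myrf in the eye field went along with other levels of these factors in the same class of cells. A gene was compared in a class when it had at least 50 UMIs over both libraries, and was counted as different when its CPM differed by at least 1.5-fold. Ratios are log2 of mutant over control CPM with 1 CPM added to each, and the interval is the exact counting interval of the plain ratio. In neurogenic-like cells all 8 genes could be compared, 1 was higher in the mutant (Bhlhe22) and 1 lower (Neurod2), where 5.05% of all 10651 genes compared passed the same limit (3.1% higher and 1.95% lower). Neurod2 had 38 and 18 UMIs, little above the limit (6.16 and 2.5 CPM), with a log2 ratio of -1.03 (-2.20 to -0.46). The median log2 ratio of the 8 genes was 0.10, beside 0.05 over all genes.

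Control neurogenic-like cells held 59.0 CPM of Bhlhe22 (53.1 to 65.4) and mutant ones 97.5 CPM (90.5 to 105), which gives a log2 ratio of 0.72 (0.54 to 0.91). It was also above the control in each of the 3 clusters, by 0.61 in cluster 14, 1.01 in cluster 12 and 0.50 in cluster 2. Within Y-linked cells of cluster 14 the log2 ratio was 0.33 (-0.31 to 0.93) on 97 and 30 UMIs, under the limit. Bhlhe22 was found in 5.61% of thinned control and 9.28% of thinned mutant cells. Atoh7 had a log2 ratio of 0.41 (0.36 to 0.47) over the class, under the 1.5-fold limit, but passed it in cluster 14 at 1.37 (1.09 to 1.66) and in cluster 12 at 0.79 (0.68 to 0.90). In cluster 2, where Atoh7 was highest, the log2 ratio was 0.24 (0.18 to 0.31). These 3 intervals do not overlap, and the ratio was larger in the clusters with less Atoh7.

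By cluster, 3 of the 7 genes compared were higher in mutant cells of cluster 12 (Atoh7, Bhlhe22 and Ptf1a) and none was lower, where 6.66% of all genes passed (4.72% higher and 1.94% lower). Ptf1a was there at 14.7 (9.84 to 21.1) and 28.1 CPM (22.0 to 35.4) on 29 and 72 UMIs, but in 2.31% and 2.22% of thinned cells (7 of 303 and 9 of 405). In cluster 14, 2 of 7 were higher (Atoh7 and Bhlhe22) and 1 was lower (Neurod4), where 8.18% of all genes passed (5.98% higher and 2.2% lower). Neurod4 was at 96.5 and 49.8 CPM with a log2 ratio of -0.94 (-1.40 to -0.52). In the pooled cells of cluster 2 none of the 7 genes passed 1.5-fold, where 5.36% of all genes did (3.22% higher and 2.14% lower). Among its Y-linked cells, however, Atoh7 passed at 0.92 (0.79 to 1.04), Neurog2 at 0.68 (0.44 to 0.91) and Ptf1a at 0.83 (0.33 to 1.32). Among its Xist cells Atoh7 was lower, at -0.81 (-1.13 to -0.47). Neurod4 was higher there at 1.74 (0.82 to 2.88) and Olig2 at 0.77 (-0.78 to 3.06), on 9 and 3 control UMIs. In the pooled cells of the class the remaining log2 ratios were under the limit, at 0.16 (0.10 to 0.22) for Neurog2, 0.11 (0.01 to 0.22) for Olig2, 0.09 (-0.11 to 0.29) for Ptf1a, -0.05 (-0.09 to 0.00) for Neurod1 and -0.10 (-0.19 to -0.02) for Neurod4. Within Y-linked cells Ptf1a passed it at 0.72 (0.32 to 1.12) on 185 and 77 UMIs, and within Xist cells Neurod1 passed it at 0.64 (0.34 to 0.95) on 92 control UMIs and Neurod4 at 1.41 (0.71 to 2.23) on 16.

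In progenitor-like cells 5 of 7 genes were at least 1.5-fold higher in the mutant, and none was lower, where 5.76% of all genes passed (3.69% higher and 2.07% lower). These were Atoh7 (3.06 and 7.21 CPM), Olig2 (1.53 and 3.96 CPM), Ptf1a (1.72 and 2.64 CPM), Neurog2 (13.9 and 21.4 CPM) and Bhlhe22 (11.3 and 21.1 CPM). Of the 5, Neurog2 and Bhlhe22 alone were above the background CPM in both libraries, with log2 ratios of 0.59 (0.38 to 0.86) and 0.85 (0.64 to 1.16). That background was not adjusted for the greater depth of its cells. Within Y-linked progenitor-like cells Bhlhe22 was under the limit, at 0.27 (-0.25 to 0.80), and within Xist cells the control had 1 UMI of it. Neurog2 was at 0.60 (0.18 to 1.08) within Y-linked cells and 0.08 (-1.06 to 1.54) within Xist cells, where the control had 6 UMIs. Insm1, a zinc finger factor of neurogenic cells, was at least 1.5-fold higher in mutant progenitor-like cells too (45.2 and 86.6 CPM), and the part of neurogenic cells placed in the progenitor-like clusters was not tested. The count of 5 was 3 without doublet removal, 2 after thinning to 1000 UMIs and 1 with cells classed by a marker gate, and in cells of at most 2000 UMIs it was 0. Within Y-linked cells 1 gene was higher (Neurog2) and 1 was lower, Neurod4 at -0.79 (-2.01 to -0.02) on 71 and 11 UMIs. Within Xist cells Neurod4 was at 0.66 (-1.71 to 6.13) and Atoh7 at 0.93 (-1.39 to 6.44), each on 1 control UMI.

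In amacrine-like cells 1 of 8 genes passed the limit, Neurod2, at 29.6 (24.5 to 35.6) and 15 CPM with a log2 ratio of -0.94 (-1.41 to -0.56), where 5.6% of all genes did (3.52% higher and 2.08% lower). Within Y-linked cells its log2 ratio was -2.40 (-4.53 to -1.21) and within Xist cells 1.11 on 1 control UMI. Within Y-linked cells 5 other genes passed the limit: Atoh7 (0.99) and Bhlhe22 (0.62) were higher, and Neurog2 (-0.63), Neurod1 (-1.11) and Neurod4 (-0.90) lower. In cells thinned to 1000 UMIs, and in cells of at most 2000 UMIs, Neurod2 had under 50 UMIs and was not compared, and no other gene was lower by 1.5-fold. Cluster 20 held 62.6 and 31.6 CPM of Neurod2. In that cluster 3 of 7 genes were lower in the mutant, where 7.14% of all genes passed (3.98% higher and 3.16% lower): Neurod4 at 185 and 76.2 CPM with a log2 ratio of -1.27 (-1.60 to -0.96), Bhlhe22 at 25.3 and 11.8 CPM, and Neurod2. For Neurod4 in cluster 20 the log2 ratio was -2.97 (-4.91 to -1.64) within Y-linked cells, with 173 and 4 UMIs, and 0.60 (-1.28 to 3.68) within Xist cells, with 2 and 101 UMIs. Ptf1a, which cluster 20 shares with cluster 17, was 807 and 733 CPM in it. No gene passed the limit in the pooled cells of cluster 17, where 7.73% of all genes did (5.25% higher and 2.48% lower). Atoh7 passed it in the Y-linked cells of cluster 17, at 1.01 (0.71 to 1.31) on 222 and 159 UMIs. Neurog2 passed it there too and was lower, at 134 and 66.5 CPM on 91 and 16 UMIs. In the Xist cells of cluster 17 Atoh7 was at 0.67 (-0.15 to 1.63) on 12 control UMIs. Neurod1 was there at 1.54 (-0.32 to 4.62) on 2 control UMIs.

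In photoreceptor-like cells 2 of 5 genes were lower in the mutant, where 5.53% of all genes passed (3.13% higher and 2.41% lower). They were Atoh7, at 89.1 and 54.7 CPM with a log2 ratio of -0.69 (-1.01 to -0.40), and Ptf1a, at 18.4 and 9.98 CPM. The thinned share of photoreceptor-like cells with Atoh7 did not follow the CPM, at 4.35% and 4.72%, and with no doublets removed the log2 ratio of Atoh7 was 0.13. Within Y-linked cells it was -1.36 (-2.47 to -0.46), and within Xist cells -0.12 (-2.01 to 2.94) on 2 control UMIs. Neurod1 and Neurod4, the abundant members of this class, had log2 ratios of -0.10 (-0.16 to -0.05) and -0.13 (-0.25 to -0.0048).

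**Figure D4:**
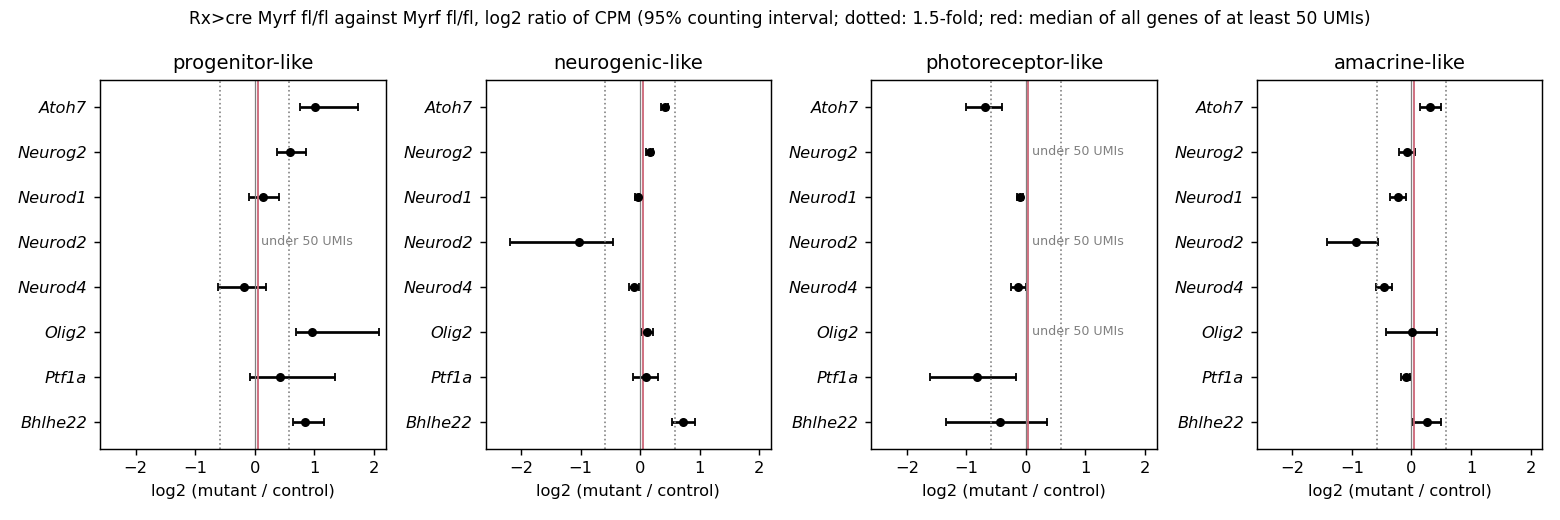
Log2 ratio of mutant over control CPM (horizontal axis, with 1 CPM added) of each gene in the 4 named classes; points are ratios, bars the 95% counting interval of the plain ratio, dotted lines the 1.5-fold limit and the red line the median of all genes compared in that class. Bhlhe22 lies to the right of the limit in progenitor-like and neurogenic-like cells, and Neurod2 to its left in neurogenic-like and amacrine-like cells.

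The pooled differences were then taken apart by the Xist and Y-linked UMIs of the cells. Cells with neither or both, 41.6% of kept control and 15.6% of kept mutant cells, were in neither set. The control had 30 neurogenic-like cells with Xist and the mutant 1094, and Y-linked ones numbered 827 and 181, so the Xist comparison rests on few control cells and the Y-linked one on fewer mutant cells. Atoh7 was 765 CPM (617 to 937) in control Xist cells, 684 CPM (658 to 710) in control Y-linked cells, 788 CPM (764 to 812) in mutant Xist cells and 1491 CPM (1416 to 1569) in mutant Y-linked cells. The mutant Y-linked cells thus stood apart from the other 3 sets, and among those the intervals of control Y-linked and mutant Xist cells did not overlap either. Within Y-linked cells the log2 ratio of mutant over control was 1.12 (1.03 to 1.22), and within Xist cells it was 0.04 (-0.25 to 0.36). The Xist value over the class joins cluster ratios of opposite sign: -0.81 (-1.13 to -0.47) in cluster 2, 1.59 (0.75 to 2.60) in cluster 12 on 11 control UMIs, and 2.57 (0.11 to 7.92) in cluster 14 on 1 control UMI. By shares of thinned cells the order was similar, with Atoh7 in 26.7% and 25.6% of control Xist and Y-linked cells, 31.0% of mutant Xist and 43.3% (36.0 to 50.9) of mutant Y-linked cells.

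By cluster, mutant Y-linked cells held 829.6 CPM of Atoh7 in cluster 14 and 1454 CPM in cluster 12, against 179 and 720 CPM in mutant Xist cells and 115 and 550 CPM in control Y-linked cells. The cells of the mutant library therefore differed among themselves by more than the mean of the libraries did. In cluster 2 control Xist cells, 13 in all, had 1947 CPM, above the 1853 CPM of the mutant Y-linked cells, so the order of the sets was not the same in every cluster.

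Bhlhe22 was at 102 CPM in Xist and 99.7 CPM in Y-linked neurogenic-like cells of the mutant against 74.0 CPM (33.8 to 140.5) and 61.8 CPM (54.3 to 70.0) in the control. Its log2 ratio was 0.68 (0.34 to 1.03) within Y-linked cells and 0.45 (-0.48 to 1.59) within Xist cells, where the control had 9 UMIs. In cluster 12 the Xist ratio was below 0, at -0.46 (-1.62 to 1.00) on 6 control UMIs, and the Y-linked one 1.22 (0.62 to 1.86). Neurod2 in amacrine-like cells was lower in the mutant Y-linked cells (4.97 CPM) than in the control ones (30.6 CPM), and in Xist cells the control had 1 UMI. Neurod1 and Neurod4 in neurogenic-like cells differed in opposite directions in Xist and Y-linked cells, with Neurod1 at 756 CPM in control and 1177 CPM in mutant Xist cells and at 1246 and 878 CPM in Y-linked cells. The clusters also took different shares of the Y-linked neurogenic-like cells: cluster 2 was 56.8% of the control and 43.1% of the mutant ones, and cluster 12 was 21.9% and 36.5%. Within Y-linked cells the log2 ratio of Neurod1 was below 0 in each of the 3 clusters, at -0.24 (-0.37 to -0.12) in cluster 2, -0.47 (-0.71 to -0.23) in cluster 12 and -0.42 (-0.79 to -0.08) in cluster 14. Within Xist cells it was 0.55 (0.16 to 0.96) in cluster 2, 0.00 (-0.56 to 0.62) in cluster 12 and 0.69 (-0.12 to 1.66) in cluster 14. For Neurod4 the Y-linked ratio was -0.22 (-0.42 to -0.02) in cluster 2 and -0.67 (-1.81 to 0.29) in cluster 14. In cluster 12 the Y-linked ratio of Neurod4 was 1.05 (0.09 to 2.06). That ratio rests on 23 and 17 UMIs, fewer than the least number set for a ratio. The Xist ratio of Neurod4 was 1.74 (0.82 to 2.88) in cluster 2, on 9 control UMIs, and it was below 0 in clusters 12 and 14, on 2 and 5 control UMIs. Whether these differences belong to the genotype, the sex, or single pups cannot be told apart in these pools.

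**Figure D5:**
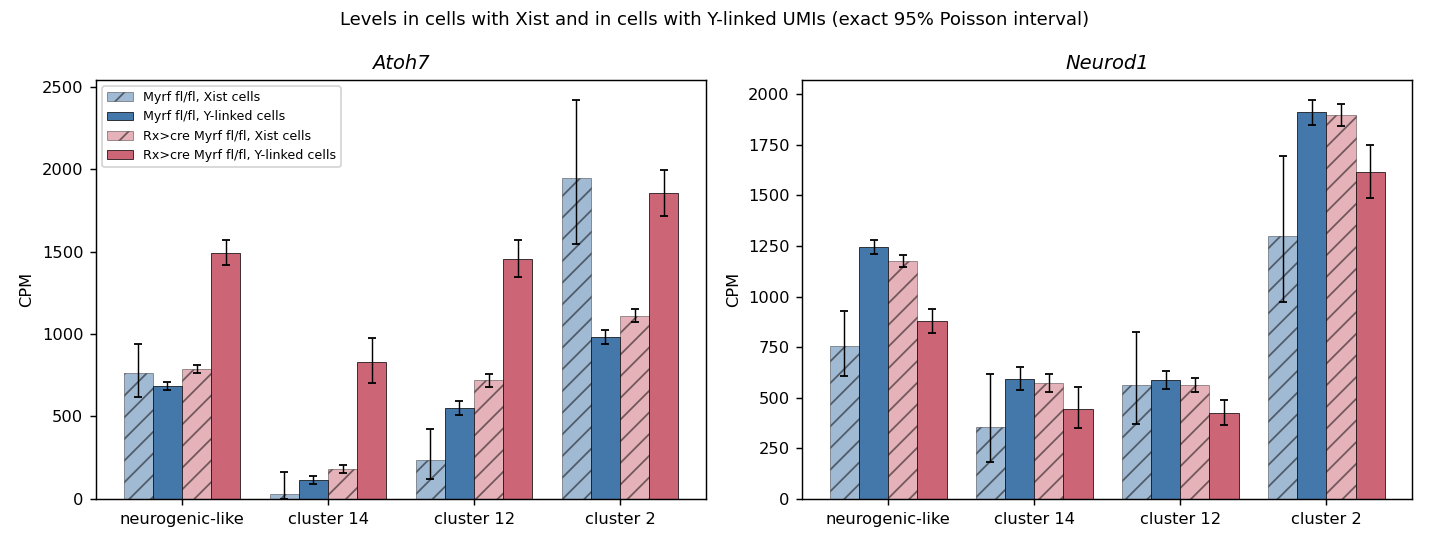
Levels of Atoh7 (left) and Neurod1 (right) in CPM (vertical axis, linear, from 0) over all neurogenic-like cells and in clusters 14, 12 and 2, in control (blue) and mutant (red) cells with Xist (hatched) or with Y-linked UMIs (plain); error bars are exact 95% Poisson intervals. Mutant Y-linked cells hold 1491 CPM of Atoh7 over the class, against 684 to 788 CPM in the other 3 sets.

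The partners and antagonists of these factors were compared in neurogenic-like cells by the same limits, against 5.05% of all genes. None of the 3 E proteins and none of the 3 other tissue-specific bHLH activators with enough UMIs (of 10 listed) passed 1.5-fold. Among Id and Hes type bHLH genes, which block or repress proneural factors, 1 of 11 was lower in the mutant, Hey2 (6.64 and 3.47 CPM), and among linked fate factors 1 of 13 was higher, Thrb (3.89 and 6.11 CPM). The median log2 ratios of the 4 lists were -0.06, 0.05, 0.00 and 0.08. The Notch effectors Hes1 and Hes5 had log2 ratios of 0.25 and 0.24. Insm1 had a log2 ratio of 0.36, Foxn4 of 0.21, Prdm13 of 0.33, Nhlh2 of -0.42 and Crx, a photoreceptor factor, of -0.22.

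Over 58 points (29 clusters of at least 50 cells in each library), the genes whose log2 levels were most like those of each member were found by Pearson r among 11980 genes. The points of a library share its depth and neighbouring clusters share cell type, so r is a description. For Atoh7 they were Pkib (0.88), Ankrd33b (0.86) and the Notch ligand Dll3 (0.86), and for Neurog2 Miat (0.87), Sox11 (0.84) and Olig2 (0.84). For Olig2 they were Sstr2 (0.87), Mybl1 (0.85) and Neurog2, so that these 2 members are each among the 3 nearest genes of the other. Neurod1 was most like Srrm4 (0.94), Igsf21 (0.93) and Ankrd33b (0.92), and Neurod4 most like Ankrd33b (0.92), Slc1a2 (0.91) and Cplx3 (0.91), with Ankrd33b shared by Neurod1, Neurod4 and Atoh7. Ptf1a was most like Ipcef1 (0.92) and the amacrine factors Prdm13 (0.91) and Dlx1 (0.91), Neurod2 most like Scrt2, Elavl3 and Tbc1d30 (0.88 to 0.90), and Bhlhe22 most like Rorb, Fam60a and Stmn1 (0.86 each). Dll3, Sstr2 and Mybl1 are also among the markers that named the neurogenic-like class.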

How the data were processed

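Single cells of P0 eye cups were sequenced as 1 library per genotype, each from 3 pooled eye cups. The deposited files hold counts, whole UMIs per gene and cell barcode, made by the authors by alignment to mm10 (Cell Ranger 7.1.0 and Seurat 4.1.1 in the submitters' processing notes; the matrix header gives software version 3.1.0). Barcodes with at least 200 genes and at most 15% mitochondrial UMIs were kept (14131 control, 12027 mutant). Doublets were then removed by Scrublet score (scanpy 1.11.5) at a rate of 0.8% per 1000 barcodes, since by itself Scrublet called 0% of the control and 5.46% of the mutant. The libraries were integrated by anchors and clustered by Louvain (Seurat 5.3.0, R 4.3.3, 1986 genes, 30 components, resolution 1). A cluster was named only where at least 3 markers and 50% of a fixed list were higher in it. The names were rebuilt here and may differ from those of the study.

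UMIs were summed per library and class, scaled to CPM, and given exact Poisson intervals, while shares were taken after thinning to 1000 UMIs, with Clopper-Pearson intervals (scipy 1.17.1). With 1 library per genotype no p-value was computed. The scripts were tested on simulated data. A gene entered a ratio with at least 50 UMIs over both libraries, and log2 ratios used a pseudocount of 1 CPM. Named genes were the members in every class, the 3 genes most like each member by Pearson r, and up to 10 genes of the partner lists by size of their log2 ratio in neurogenic-like cells. The values of 1 gene that this rule names are not reported here. Members and lists were chosen with earlier results of these data known. Leaving out shared barcodes, adding clusters 1, 5 and 9 to the denominator and shortening the division lists were alternatives chosen after seeing the data.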

Additional observations from a re-analysis of the deposited data

Results flagged for a closer look

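Atoh7 had log2 ratios of mutant over control of 1.02 in progenitor-like, 0.41 in neurogenic-like and 0.32 in amacrine-like cells, and of -0.69 in photoreceptor-like cells, so the sign differed between the classes. The sign of 2 of these depends on the processing: with classes from a marker gate the amacrine-like ratio was -1.54, and with no doublets removed the photoreceptor-like ratio was 0.13. The difference between the classes was not tested, since there is 1 library per genotype.

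Neurod1 in neurogenic-like cells had a log2 ratio of 0.64 within Xist cells and -0.50 within Y-linked cells, and in amacrine-like cells 1.95, on 7 UMIs in 24 control cells, and -1.11. Neurod4 in neurogenic-like cells had 1.41 within Xist cells, on 16 control UMIs, and -0.54 within Y-linked cells. Cluster 2 was 56.8% of the control and 43.1% of the mutant Y-linked neurogenic-like cells. Within clusters 2, 12 and 14 the Y-linked ratios were -0.24, -0.47 and -0.42 for Neurod1 and -0.22, 1.05 and -0.67 for Neurod4. The 1.05 of Neurod4 in cluster 12 rests on 23 and 17 UMIs, fewer than the least number set for a ratio. In Xist cells of cluster 2 the ratios were 0.55 for Neurod1 and 1.74 for Neurod4. The opposite signs were not tested, and the control held 30 Xist neurogenic-like cells.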

How the results depend on the processing

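No paired analysis was possible because each genotype has 1 library, and for the same reason no replicate could be left out. Of 377 ratios of single members over 15 settings, 293 stayed within the counting interval of the main value, 81 moved out of it and 3 ratios past 1.5-fold changed sign. Ratios under 1.5-fold that changed sign are counted among those that moved or stayed. Of 248 summary values over 23 settings, 168 stayed (shares within their counting interval, counts within 1.5 times) and 80 moved. In all, 43 ratios with under 50 UMIs and 4 shares with under 20 cells were left out. The cause of a change was not tested.

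The main counts of members past 1.5-fold were 5 higher in progenitor-like cells, 1 higher and 1 lower in neurogenic-like, 2 lower in photoreceptor-like and 1 lower in amacrine-like cells, with median log2 ratios of 0.59, 0.10, -0.44 and -0.09, and the neurogenic share was 23.5% and 20.96%. With a mitochondrial limit of 5%, 0 were lower in neurogenic-like cells and the control share was 22.2%. In cells of at most 2000 UMIs, 0 were higher in progenitor-like and 0 lower in the other 3 classes, the neurogenic-like median was 0.43 and the shares were 28.3% and 22.0%. Scaling by the median of gene ratios left 3 higher in progenitor-like cells, and the mean of per-cell CPM left 1 lower in photoreceptor-like cells. Thinning to 1000 UMIs left 2 higher in progenitor-like cells, 0 lower elsewhere and 1 higher in amacrine-like cells (median 0.046).

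At resolution 0.5, 2 were higher in progenitor-like cells (median 0.25) and the shares were 20.1% and 18.6%. Without anchor integration, 3 were higher in progenitor-like and 1 lower in photoreceptor-like cells, with shares of 21.3% and 18.6%. With no doublets removed, 3 were higher in progenitor-like cells, 1 was higher and 0 lower in photoreceptor-like cells (median 0.13), where Atoh7 turned to 0.13, the mutant share was 22.1%, and Atoh7 was in 23.5% and 29.5% of thinned neurogenic-like cells. With classes from a marker gate, 1 was higher in progenitor-like cells (median 0.23), where Ptf1a turned to -0.44, 0 were lower in photoreceptor-like and 3 lower in amacrine-like cells (median -0.30), where Atoh7 went from 0.32 to -1.54, and the shares were 12.5% and 12.7%. Adding clusters 1, 5 and 9 to the denominator, an alternative chosen after seeing the data, gave shares of 17.6% and 16.4%.

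Within Xist cells, 2 were higher and 0 lower in neurogenic-like cells (median 0.45), 0 lower in photoreceptor-like cells, and 2 higher and 0 lower in amacrine-like cells (median 0.068), where Neurod2 turned to 1.11 on 1 control UMI. Within Y-linked cells, 1 was higher and 1 lower in progenitor-like cells (median 0.30), 3 higher and 0 lower in neurogenic-like, 1 lower in photoreceptor-like, and 2 higher and 4 lower in amacrine-like cells (median -0.54). The mutant share of neurogenic-like cells with Atoh7 was 31.0% within Xist and 43.3% within Y-linked cells, and Neurog2 was in 46.3% of Y-linked mutant Olig2 cells.

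Thinning to 2000 UMIs in place of 1000 put Neurod1 in 88.6% and 90.2% of Neurod4 cells, Neurog2 in 65.7% and 74.6% of Olig2 cells and Atoh7 in 37.7% and 44.7% of neurogenic-like cells, and unthinned cells gave 94.1% and 94.4%, 81.5% and 85.9%, and 46.6% and 56.2%. The share of neurogenic-like cells with division genes was 95.2% and 96.6% at 1 UMI, 59.96% and 69.4% at 3 UMIs, 37.1% and 44.5% by the shorter lists and 29.6% and 37.0% by the shorter lists at 3 UMIs, against 77.4% and 85.2%. The share of all genes past 1.5-fold depended on the least number of UMIs: in progenitor-like cells it was 5.76% at 50, 9.45% at 20 and 28.1% at 1 UMI, and in neurogenic-like cells 5.05%, 8.96% and 29.3%.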
